A study of Cucumis melo with 9 samples.

Results

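Pathogenesis-related (PR) proteins, chitinases and protease inhibitors are proteins with which plant tissues meet fungi, bacteria and insects, and the transcripts that encode them were followed through cold storage in ripe fruit of melon (Cucumis melo) 'HT'. Members were all genes whose description in the deposited table holds the words pathogenesis-related, chitinase, thaumatin, osmotin, glucan endo-1,3-beta-glucosidase, major latex, MLP-like, or trypsin, proteinase or protease inhibitor. Transcription factors and transcriptional activators were left out. This gave 216 of the 29980 genes in the table. Of them, 96 had a mean FPKM (reads per gene, corrected for gene length and library total) above 1 and were tested for differences between groups, among 15022 genes in all that passed this filter.

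Each of the 3 groups held 3 libraries, each from 3 fruits, and all fruit were grown in a greenhouse. Recovered fruit (Group A) spent 7 d at 4°C followed by 1 d near 22°C. Chilled fruit (Group B) stayed at 4°C for 8 d. Unchilled fruit (Group C) were picked on day 8 and were never stored, so that storage and harvest date cannot be told apart in any comparison with them. Both stored groups were described as free of chilling injury.

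In plants, PR proteins are a set of unrelated families that were first grouped because they accumulate in infected leaves. Glucanases (PR-2) and chitinases cut the glucan and chitin of fungal cell walls, thaumatin-like proteins (PR-5) include antifungal and sweet-tasting proteins, and PR-4 proteins bind or cut chitin. Cystatins block cysteine proteases, and Kunitz, Bowman-Birk and squash-type trypsin inhibitors block serine proteases of insects and of the plant itself. Many of these proteins are also made in healthy ripening fruit, and some, among them thaumatin-like proteins and chitinases, are known from cold-hardened cereals as antifreeze proteins of the cell wall.

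The libraries held 15508367 to 19011486 counts. Members took 0.746 to 2.23% of them, and 129 to 141 members had at least 1 count in any given library. Levels below are FPKM divided by the TMM factor of the library (trimmed mean of M-values, a scaling that assumes that most genes do not differ). These factors were 1.117 to 1.134 in recovered, 0.764 to 0.8084 in chilled and 1.111 to 1.129 in unchilled libraries. The factors of the chilled group stood apart, and scaling to library totals moved the median of all genes to -0.560 on the log2 scale in chilled against unchilled fruit. Sums of members, and counts of calls over all members, are given under both where they depend on this choice, and splits of single classes in part. Lists of other genes are given on the TMM scale only. Transcripts of 3 genes of ripe melon were present in all 9 libraries, but at lower levels in the cold. CmACO1, an ethylene-forming oxidase, was at 633 to 2421 in recovered, 466 to 593 in chilled and 1057 to 1423 in unchilled fruit. CmAAT1, an ester-forming acyltransferase, was at 2033 to 2833 in recovered, 296 to 337 in chilled and 1745 to 2262 in unchilled fruit, and the ripening regulator CmNOR at 1000.4 to 1277 in recovered, 23.8 to 27.8 in chilled and 684 to 917 in unchilled fruit. Recovered library 2 stood high for the most abundant members, and values that rest on it are given without it.

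Transcripts of the members were held in few genes. The most abundant member made up 27.7% of the summed level of all members, the top 5 made up 75.6% and the top 20 made up 93.3%. Among tested members, 3 reached a mean level of 1000, 12 reached 100 and 42 reached 10. The most abundant were a chitinase on chromosome 8, MELO3C007961.2, and a PR-4-like gene on chromosome 5, MELO3C004385.2. Of the 120 members that were not tested, 48 had no count in any library and 25 reached 10 counts in at least 1 library, with 64 as the highest count.

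The summed level of all members was 10754.6, 19511.6 and 11112.7 in recovered libraries, 8595.45, 10206.1 and 10611 in chilled libraries, and 8295.53, 6926.25 and 9880.38 in unchilled libraries. Recovered library 2 stood far above the other 8. Under library totals the sum was 6567 to 8578 in chilled and 7774 to 11160 in unchilled fruit, so that the order of these 2 groups turned, and their libraries overlapped under both scalings. The chitinase and the PR-4-like gene together held 57.9, 76.6 and 64.1% of this sum in recovered libraries, 25.2, 34.7 and 38.9% in chilled libraries, and 59.1, 50.9 and 63.6% in unchilled libraries. These 2 genes thus held a smaller share in every chilled library than in any other. Without these 2 genes the sum was 4525, 4556 and 3994 in recovered fruit, 6433, 6668 and 6480 in chilled fruit, and 3397, 3399 and 3598 in unchilled fruit, and the groups did not overlap. Under library totals this sum was 4492 to 5167 in recovered, 4915 to 5379 in chilled and 3775 to 4063 in unchilled fruit, so that the chilled libraries stayed above the unchilled ones and overlapped the recovered ones. In bulk RNA, fewer cells of a type and less RNA per cell cannot be told apart.

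**Figure D1:**
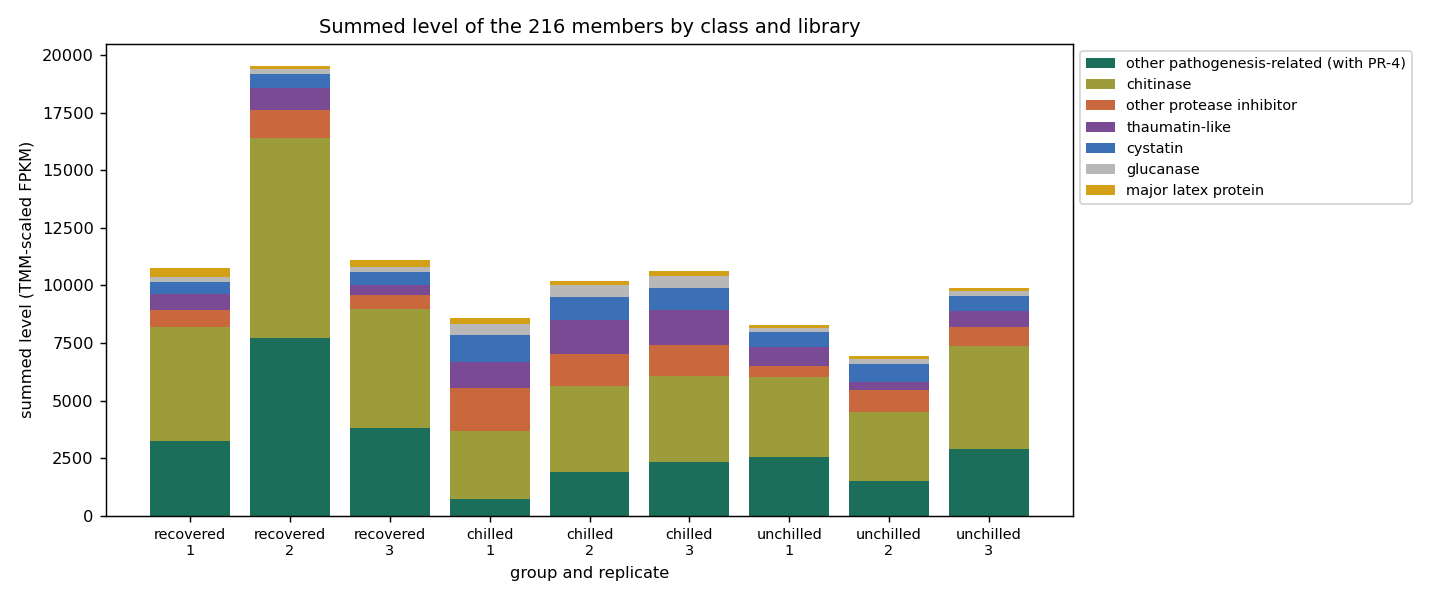
Summed level of the 216 members (TMM-scaled FPKM, vertical axis from 0) in each of the 9 libraries, as stacked bars coloured by class, with recovered, chilled and unchilled fruit from left to right. Recovered library 2 reached 19511.6, mostly chitinase and the class that holds PR-4, and the parts of the bars for cystatins, glucanases, thaumatin-like proteins and other protease inhibitors were largest in chilled libraries on this scale, which for the last 2 classes and the cystatins ended in overlap under library totals.

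Classes differed in which group held the most transcript. Glucanases summed to between 217.4 and 224.2 in recovered, between 465.5 and 522.2 in chilled and between 199.7 and 218.8 in unchilled libraries. The sums of thaumatin-like genes lay between 399.7 and 957.6 in recovered, between 1158.4 and 1508.4 in chilled and between 347.7 and 812.7 in unchilled libraries. Those of protease inhibitors other than cystatins lay between 641.6 and 1187.9 in recovered, between 1352.4 and 1863.4 in chilled and between 497.2 and 979.7 in unchilled libraries. In these 3 classes the chilled libraries did not overlap those of either other group. For the thaumatin-like class this rested on 1 gene, MELO3C011018.2, without which the sums overlapped, at 367.3 to 922.1 in recovered, 250.3 to 532.3 in chilled and 312.7 to 780.8 in unchilled fruit. The inhibitor class leaned on MELO3C006464.2, at 189 to 595 in recovered, 438 to 912 in chilled and 6.11 to 40.1 in unchilled fruit. Without that gene the inhibitor sums of chilled and unchilled libraries overlapped as well. Under library totals the separation held for the glucanases (244.4 to 254.3 in recovered, 355.6 to 421.2 in chilled and 221.9 to 245.6 in unchilled fruit), whereas for the other 2 classes the chilled libraries overlapped both other groups. The glucanase sum leaned on MELO3C007163.2, MELO3C026893.2, MELO3C004704.2 and MELO3C020446.2, and it was not taken without them. Of the 27 tested glucanases, with TMM scaling, 9 were called higher and 9 lower in chilled against unchilled fruit. Their median log2 fold change there was -0.368, so the sum and the median differ in direction. The chitinase sum was higher in the recovered libraries, at 4932.3 to 8702.81 in recovered, 2930.4 to 3762.42 in chilled and 2975.81 to 4471.73 in unchilled fruit. Under library totals the chilled libraries, at 2239 to 3041, lay wholly below the unchilled ones, at 3340 to 5050. This order was carried by MELO3C007961.2. Without it the chitinases summed under library totals to 1632 to 2153 in recovered, 1125 to 1658 in chilled and 1002 to 1214 in unchilled fruit. Chilled and unchilled libraries then overlapped. With TMM scaling the sums without it were 1439 to 1927 in recovered, 1473 to 2056 in chilled and 892.4 to 1075 in unchilled fruit.

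The first question was which members differ after 8 d in the cold. A member was called when its absolute log2 fold change was above 1 and its adjusted p was below 0.05, from edgeR's quasi-likelihood test with Benjamini-Hochberg adjustment over the 15022 genes. In chilled against unchilled fruit 52 of 96 members (54.2%) were called, 35 higher and 17 lower, where 48.3% of all tested genes were called, 22.1% higher and 26.2% lower. The share of members called was thus near that of all genes, and more members were called higher than lower. Scaled to library totals, 27 members were higher and 26 lower, against 14.9% and 37.9% of all genes, so that the balance of directions depends on the scaling. The median log2 fold change of the members was 0.452 and that of all genes -0.062, or -0.059 and -0.560 with library totals. The libraries of these groups did not overlap for 65 of 96 members, where this was so for 78.3% of all tested genes.

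The next question was what 1 d at room temperature did. In recovered against chilled fruit 52 of 96 members were called, 14 higher and 38 lower, where 50.4% of all tested genes were called, 25.1% higher and 25.3% lower. With library totals 21 members were higher and 32 lower, against 36.4% and 17.2% of all genes. The members' median log2 fold change was -0.636, against -0.019 over all genes, or -0.131 and 0.485 with library totals. The libraries did not overlap for 63 members, where 79.9% of all tested genes had no overlap. This comparison uses the same chilled libraries as the previous one, so a gene that was high in them stands out in both.

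In recovered against unchilled fruit, which asks what remained different after the day of recovery, 38 of 96 members (39.6%) were called, 14 higher and 24 lower. Of all tested genes 12.8% were called, 3.66% higher and 9.15% lower. The share among members was the larger one in both directions, and it was so with library totals as well, at 14 higher and 25 lower. Without recovered library 3 the count was 24 (25.0% of members, 10.9% of all genes), and at an adjusted p below 0.01 it was 21 (21.9% and 9.05%). The median log2 fold change was -0.07 among members and 0.011 over all genes, and the libraries did not overlap for 56 of 96 members, where 52.9% of all tested genes had no overlap.

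**Figure D2:**
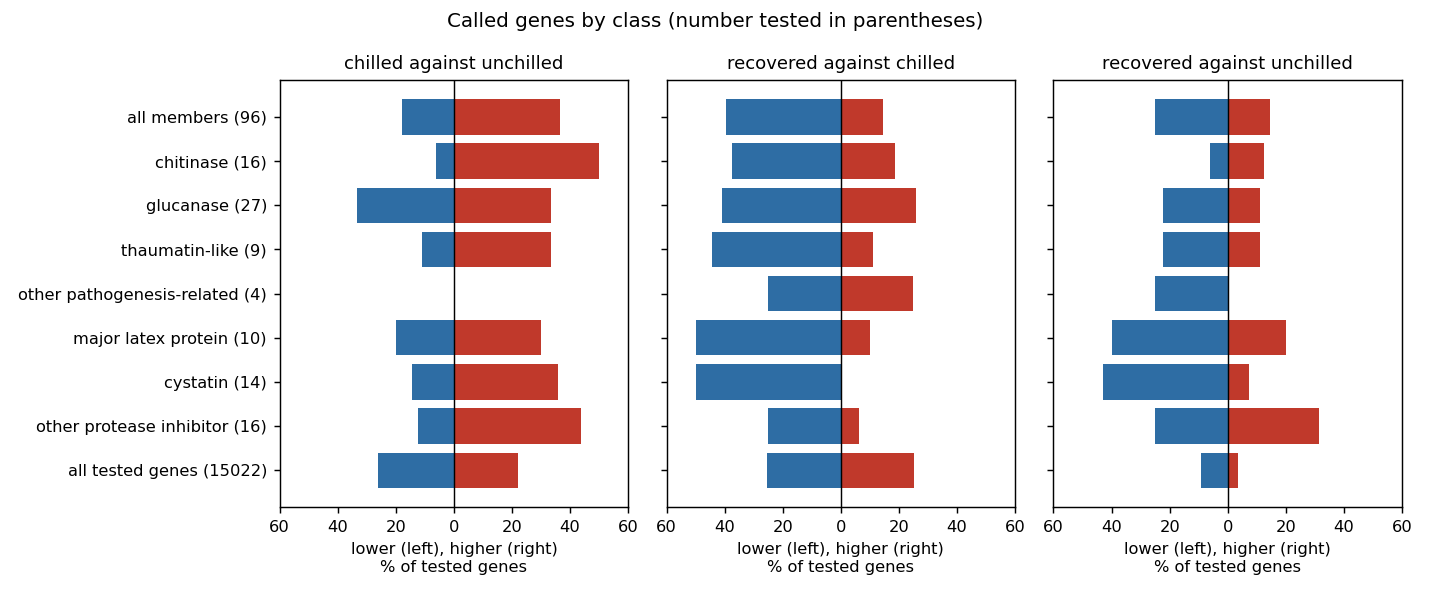
Share of tested genes called higher (red, to the right of 0) and lower (blue, to the left of 0), in percent, for all members, each class and all 15022 tested genes, with the number tested in parentheses and 1 panel per comparison. In recovered against unchilled fruit the bars of all members are longer than those of all tested genes in both directions (38 of 96 members, against 12.8% of all genes).

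Chitinases hydrolyse chitin, a structural polymer of fungal cell walls. Of 25 genes so described 16 were tested, and 8 rose and 1 fell in chilled against unchilled fruit. In recovered against chilled fruit 3 rose and 6 fell, and in recovered against unchilled fruit 2 rose and 1 fell. With library totals the first of these splits was 6 and 3 and the second 4 and 5.

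The chitinase MELO3C007961.2 (chromosome 8, 6483540 to 6484970) had the highest mean level of all members. It stood at 3006, 7264 and 3349 in recovered libraries, 1458, 1680.0 and 1902 in chilled libraries, and 2465, 2083 and 3396 in unchilled libraries. Every recovered library was above every chilled one, and recovered fruit exceeded chilled fruit by 1.43 ± 0.34 (log2, SE, adjusted p = 0.00374). Without recovered library 2 that difference was 0.92 and below the fold threshold. The values of chilled fruit were also below those of unchilled fruit, but the log2 difference of -0.66 ± 0.33 had an adjusted p of 0.101. A second chitinase in the same stretch, MELO3C007962.2 (6487828 to 6490135), was at 37.8, 81.6 and 29.2 in recovered, 35.1, 12 and 9.38 in chilled, and 10.7, 10.1 and 13.5 in unchilled libraries. It rose by 2.11 ± 0.55 in recovered against unchilled fruit (adjusted p = 0.0179), a call that was lost without recovered library 2 (1.55) and without unchilled library 1 or 2. Its call in recovered against chilled fruit (1.40 ± 0.54, adjusted p = 0.0399) was lost without recovered library 2 (0.84), chilled library 2 or 3, or any 1 unchilled library, and without chilled library 1, in which it was high, the difference was 2.22. The other 3 chitinase genes of this stretch, which ends at 6508525, had 8 counts in all over the 9 libraries.

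The acidic endochitinase MELO3C006965.2 (chromosome 6, 7751223 to 7752415) was high in both stored groups. It had 1682, 1145 and 1587 in recovered libraries, 1015, 1585 and 1386 in chilled libraries, and 832, 676 and 868 in unchilled libraries. Neither stored group overlapped the unchilled one, at log2 differences of 0.89 ± 0.20 for recovered (adjusted p = 0.00809) and 0.75 ± 0.20 for chilled fruit (adjusted p = 0.00704), both below the fold threshold.

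A pair of genes described as chitinase-like protein 1 lies end to end on chromosome 7. By mean level both had the order chilled, recovered, unchilled. Chitinase-like protein 1 is known in Arabidopsis from cellulose deposition rather than chitin cutting. MELO3C032841.2 (26283522 to 26284579) was at 83.7, 84 and 87.5 in recovered, 146, 178 and 181 in chilled, and 54.3, 84.2 and 73.8 in unchilled fruit. MELO3C017677.2 (26284691 to 26286029) was at 64.2, 64 and 69.4, then 123, 155 and 155, then 42.7, 62.9 and 61.4 in the same order of groups. Chilled fruit were higher than unchilled fruit by 1.25 ± 0.15 (adjusted p = 4.89e-05) and 1.37 ± 0.15 (adjusted p = 2.57e-05). Both calls were lost with library totals. Whether reads that fit both genes were shared between them was not tested, so these may not be independent measurements.

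A pair of acidic endochitinase-like genes on chromosome 6 was low outside the cold. MELO3C006072.2 (879741 to 881431) stood at 0.901, 1.46 and 0.659 in recovered, 11, 9.02 and 8.39 in chilled, and 1.89, 1.31 and 1.32 in unchilled libraries. It rose by 2.65 ± 0.30 in chilled against unchilled fruit (adjusted p = 2.90e-05) and fell by 3.23 in recovered against chilled fruit (SE 0.31, adjusted p = 8.75e-06). MELO3C006069.2, which lies in the same cluster and was picked after its values were seen, averaged 0.245 ± 0.159 in recovered, 4.75 ± 2.11 in chilled and 1.01 ± 0.568 in unchilled fruit (SD, n = 3 each). A basic endochitinase C, MELO3C013736.2, likewise picked after its values were seen, averaged 9.99 in recovered, 50.6 in chilled and 6.78 in unchilled fruit, with a log2 difference of 2.90 between chilled and unchilled fruit. Genes that stood alone in a count of called chitinases are named here on the same terms. The 1 chitinase that fell in the cold was acidic endochitinase-like MELO3C026772.2, at 1.9 ± 0.28 in recovered, 0.928 ± 0.179 in chilled and 2.8 ± 0.17 in unchilled fruit (SD, n = 3 each). Beside MELO3C007962.2, the other chitinase that rose in recovered against unchilled fruit was chitinase 10, MELO3C005190.2, at 2.58 ± 0.703 in recovered, 2.99 ± 0.927 in chilled and 0.587 ± 0.201 in unchilled fruit, with a log2 difference of 2.13 ± 0.40 (adjusted p = 0.00332). The 1 that fell there was MELO3C006069.2, by -2.04 ± 0.63 (adjusted p = 0.0308), a call that was lost without recovered library 2 or 3 or unchilled library 1 or 3, while the difference was -2.67 without recovered library 1.

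PR-4 and PR-1 each had a single tested gene, and PR-4 was the abundant one. The PR-4-like gene MELO3C004385.2 (chromosome 5, 27073270 to 27074250) was at 3224, 7692 and 3769.8 in recovered libraries, 704, 1858 and 2229 in chilled libraries, and 2434, 1444 and 2886 in unchilled libraries. All 3 recovered libraries exceeded all others, and recovered fruit were above chilled fruit by 1.62 ± 0.49 (adjusted p = 0.0151). Without recovered library 2 the difference was 1.13 and no longer called. Against unchilled fruit the recovered fruit differed by 1.12 ± 0.49 (adjusted p = 0.108). Its 2 neighbours of the same description had 4 counts in all over the 9 libraries.

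PR-1 is the classical marker of the salicylic acid response in leaves. Of 16 genes with a PR-1 description only MELO3C018539.2 (chromosome 1, 991497 to 992373) was tested, and 7 had no count in any library. Its level was 8.35, 9.22 and 2.24 in recovered libraries, 12.1, 37.1 and 64.2 in chilled libraries, and 82.4, 50.8 and 12.8 in unchilled libraries. Chilled and unchilled libraries each spread widely and overlapped each other. Recovered fruit lay below both, by -2.53 ± 0.84 against chilled (adjusted p = 0.0216) and -2.89 ± 0.84 against unchilled fruit (adjusted p = 0.0277). The first call was lost without recovered library 3 or chilled library 3 (-1.91) and with library totals, and the second without any 1 recovered library, without unchilled library 1 (-2.29) or without unchilled library 2. It lies in the largest cluster of the members, 10 PR-1 genes between 978647 and 1020361, of which no other was tested. In that cluster MELO3C018536.2, picked after its values were seen, had 57 counts in recovered, 0 in chilled and 1 in unchilled fruit. These counts are sums over each group and are not set out by library, so a single recovered library may carry them.

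Glucanases hydrolyse the 1,3-beta-glucans of fungal walls and also callose, the plant's own glucan, at plasmodesmata and wounds. This was the class with the most members, 52 genes of which 27 were tested. In chilled fruit 9 rose and 9 fell against unchilled fruit, in recovered against chilled fruit 7 rose and 11 fell, and in recovered against unchilled fruit 3 rose and 6 fell. With library totals the first split was 9 and 12.

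MELO3C007163.2 (glucan endo-1,3-beta-glucosidase 1, chromosome 8, 1210320 to 1212911) had 32.6, 26.6 and 37.4 in recovered libraries, 70.9, 74.9 and 69.1 in chilled libraries, and 20.9, 26.3 and 24.8 in unchilled libraries. The chilled fruit were above the unchilled fruit by 1.58 ± 0.13 (adjusted p = 3.85e-06). Recovered fruit were below chilled fruit by -1.15 ± 0.13, a call that was lost with library totals. MELO3C026893.2 (chromosome 4, 25908267 to 25911216) stood at 16, 16.5 and 13.5 in recovered, 76.3, 108 and 102 in chilled, and 11.8, 10.8 and 10.2 in unchilled libraries. It rose by 3.13 ± 0.15 in the cold against unchilled fruit (adjusted p = 1.25e-07) and differed by -2.64 ± 0.14 between recovered and chilled fruit (adjusted p = 2.51e-07).

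The same order of groups was seen for MELO3C004704.2 and MELO3C020446.2. MELO3C004704.2 (chromosome 12, 12026788 to 12030190) was at 16.4, 26.9 and 21.2 in recovered, 82.6, 67.2 and 62.5 in chilled, and 16.8, 13 and 13 in unchilled fruit, with 2.31 ± 0.20 between chilled and unchilled fruit (adjusted p = 4.88e-06). MELO3C020446.2 (chromosome 5, 8508515 to 8512070) was at 12.2, 14 and 13.6 in recovered libraries, 61.2, 69.2 and 59.4 in chilled libraries, and 3.03, 2.78 and 2.82 in unchilled libraries. The 3 groups of this gene were far apart with little spread, and chilled fruit exceeded unchilled fruit by 4.45 ± 0.13 (adjusted p = 1.65e-08). After the day of recovery it was still 2.20 ± 0.12 above unchilled fruit (adjusted p = 3.01e-05), the only gene among these 4 to be called there. The other 2 glucanases that rose in recovered against unchilled fruit, picked after their values were seen, also carry the description glucan endo-1,3-beta-glucosidase 1. MELO3C002709.2 (chromosome 12, 21810130 to 21813182) averaged 1.16 ± 0.111 in recovered, 7.98 ± 1.22 in chilled and 0.407 ± 0.0441 in unchilled fruit, and MELO3C032375.2 (chromosome 7, 5675400 to 5677229) averaged 0.303 ± 0.0487 in recovered, 4.21 ± 0.549 in chilled and 0.0968 ± 0.0546 in unchilled fruit (SD, n = 3 each). The call of the second rests on 27 counts in recovered and 8 in unchilled fruit and was lost without recovered library 1 or 3 or unchilled library 1. All 3 genes had the order chilled, recovered, unchilled with no overlap between groups.

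Other glucanases were low in the cold. MELO3C016635.2 (glucan endo-1,3-beta-glucosidase 3, chromosome 7, 3891843 to 3893994) had 5.99, 6.63 and 6.36 in recovered, 1.23, 1.78 and 2.34 in chilled, and 7.82, 8.75 and 9.47 in unchilled libraries. It fell by 2.27 in chilled against unchilled fruit (SE 0.22, adjusted p = 9.05e-06) and rose by 1.81 ± 0.21 in recovered against chilled fruit (adjusted p = 3.78e-05). MELO3C029654.2 (glucan endo-1,3-beta-glucosidase 14-like, chromosome 2, 17213857 to 17217196) was at 3.41, 4.77 and 4.04 in recovered, 0.885, 0.756 and 0.625 in chilled, and 8.44, 4.96 and 5.5 in unchilled libraries. Chilled fruit were below unchilled fruit by -3.06 ± 0.29 (adjusted p = 8.25e-06), and recovered fruit were above chilled fruit by 2.43 ± 0.29 (adjusted p = 3.65e-05). The largest fall of a glucanase in the cold was that of MELO3C015084.2 (glucan endo-1,3-beta-glucosidase 4-like, chromosome 2, 8558248 to 8563136), which was too low for the rule on named genes and was picked after its values were seen. It averaged 1.6 ± 0.374 in recovered, 0.115 ± 0.0491 in chilled and 2.2 ± 0.567 in unchilled fruit (SD, n = 3 each), with a log2 difference of -4.25 ± 0.41 between chilled and unchilled fruit (adjusted p = 9.58e-06).

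**Figure D3:**
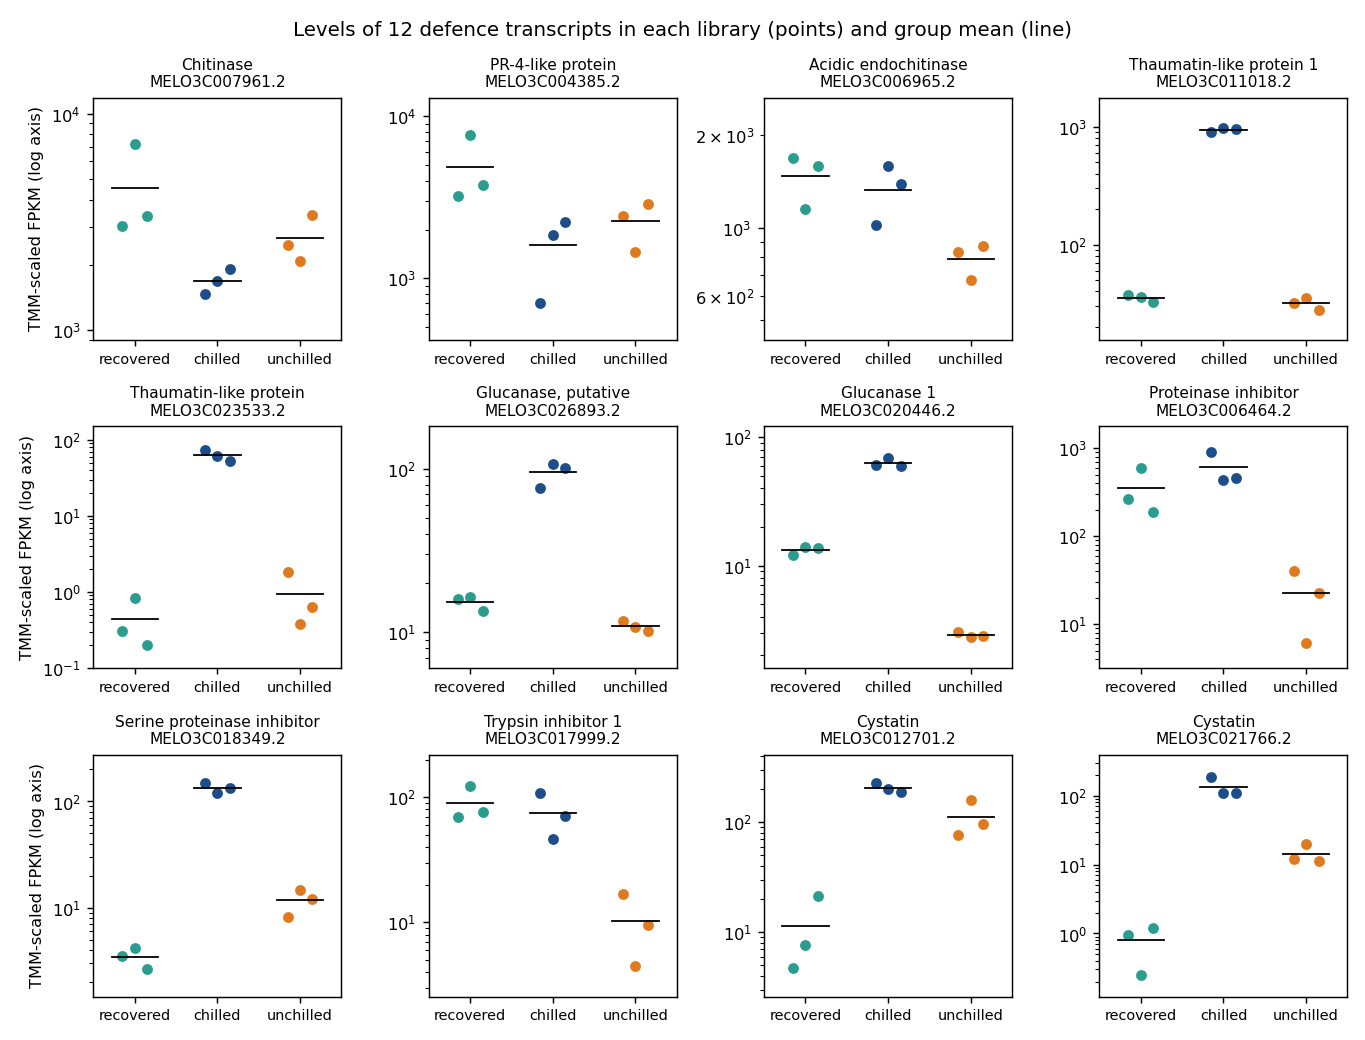
Level of 12 members, picked after their values were seen, in each library (TMM-scaled FPKM, log axis with its own range in each panel), with recovered, chilled and unchilled fruit from left to right. Points are libraries and lines are group means. Thaumatin-like protein 1 MELO3C011018.2 was at 908 to 984 in chilled libraries and at 27.7 to 37.4 in the others, whereas proteinase inhibitor MELO3C006464.2 was high in both stored groups.

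Thaumatin-like proteins act on fungal membranes and glucans, and relatives of them bind ice in cold-hardened rye. Of 27 genes 9 were tested. Between chilled and unchilled fruit 3 rose in the cold and 1 fell, in recovered against chilled fruit 1 rose and 4 fell, and in recovered against unchilled fruit 1 rose and 2 fell. With library totals the first of these splits was 3 and 2.

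Thaumatin-like protein 1 MELO3C011018.2 (chromosome 3, 29334802 to 29337406) had the largest summed count of any member in chilled fruit. Its level was 37.4, 35.5 and 32.3 in recovered libraries, 908, 984 and 957 in chilled libraries, and 32, 35 and 27.7 in unchilled libraries. The difference between chilled and unchilled fruit was 4.91 ± 0.13 (adjusted p = 1.25e-08) and that between recovered and chilled fruit -4.76 ± 0.12 (adjusted p = 1.20e-08). After 1 d at room temperature its level overlapped that of unchilled fruit, with a difference of 0.15 ± 0.11 (adjusted p = 0.304). MELO3C023533.2 (chromosome 1, 33783070 to 33783849) was also highest in chilled fruit, at 0.304, 0.832 and 0.198 in recovered, 74.5, 60.8 and 53.2 in chilled, and 1.8, 0.376 and 0.626 in unchilled libraries. It rose by 6.07 ± 0.47 in chilled against unchilled fruit (adjusted p = 3.24e-06, 6.93 without unchilled library 1) and differed by -7.14 ± 0.51 between recovered and chilled fruit (adjusted p = 1.84e-06, -7.92 without recovered library 2).

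MELO3C003144.2, a thaumatin family gene on chromosome 8 (32496763 to 32497666), had no count in unchilled fruit. It had 14 counts over the recovered libraries and 278 over the chilled libraries, where its level was 7.32, 9.57 and 8.39. Set against a floor of 3 counts over the unchilled group, it was at least 124.9-fold higher in chilled and at least 4.304-fold higher in recovered fruit than in unchilled fruit.

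The other named thaumatin-like genes did not follow this order. Thaumatin-like protein 1a, MELO3C009383.2 (chromosome 4, 32478926 to 32480092), was abundant but variable, at 619, 904 and 349 in recovered, 137, 436 and 449.7 in chilled, and 709, 269.8 and 648 in unchilled libraries, and all 3 groups overlapped. None of its comparisons passed, with adjusted p of 0.168 for recovered against chilled, 0.282 for chilled against unchilled and 0.796 for recovered against unchilled fruit. MELO3C020802.2 (chromosome 11, 4021474 to 4024369) was at 6.05, 5.19 and 6.44 in recovered, 1.2, 0.837 and 1.66 in chilled, and 6.97, 7.29 and 7.19 in unchilled libraries, and fell by 2.52 in the cold (SE 0.23, adjusted p = 7.77e-06). MELO3C005643.2 (chromosome 9, 23184321 to 23185308) was lowest in recovered fruit, at 0.42, 0.765 and 0.121, against 3.7, 1.86 and 3.92 in chilled and 12, 4.22 and 1.65 in unchilled fruit. It differed by -3.77 ± 0.83 between recovered and unchilled fruit (adjusted p = 0.00811, -4.45 without recovered library 2 and -2.77 without unchilled library 1) and by -2.87 ± 0.85 between recovered and chilled fruit (adjusted p = 0.0124, -3.55 without recovered library 2).

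A pair of thaumatin-like protein 1 genes on chromosome 4 shows how neighbours can part. MELO3C003746.2 (3820687 to 3824686) averaged 5.62 ± 0.352 in recovered, 5.57 ± 0.639 in chilled and 5.82 ± 0.452 in unchilled fruit (SD, n = 3 each). MELO3C003745.2 (3808994 to 3811595) was at 9.23, 1.3 and 1.11 in recovered, 16.4, 6.35 and 5.22 in chilled, and 40.3, 22.7 and 28.7 in unchilled libraries. It was called lower in recovered than in unchilled fruit (-2.99 ± 0.82, adjusted p = 0.0217). The call was lost without recovered library 2 or 3 or unchilled library 1, and without recovered library 1 the difference was -4.67.

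Major latex proteins and MLP-like proteins belong to the Bet v 1 fold of PR-10 proteins and were first found in poppy latex. In cucurbits they are known to carry hydrophobic compounds in the xylem. Of 26 genes 10 were tested. Against unchilled fruit 3 rose and 2 fell in chilled fruit, and 2 rose and 4 fell in recovered fruit. Against chilled fruit 1 rose and 5 fell in recovered fruit, or 3 and 4 with library totals.

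The most abundant, MLP-like protein 328 MELO3C015005.2 (chromosome 2, 10336999 to 10337893), was high in both stored groups. Its level was 332, 81.3 and 277 in recovered libraries, 126, 119.9 and 143 in chilled libraries, and 53.7, 25.1 and 43.3 in unchilled libraries. Recovered library 2, which was high for the chitinase and PR-4, was the low one here. The gene rose by 2.50 ± 0.49 in recovered (adjusted p = 0.00524) and by 1.67 ± 0.48 in chilled fruit (adjusted p = 0.0115), both against unchilled fruit.

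Other members of the class went different ways. MLP-like protein 28 MELO3C014991.2 (chromosome 2, 10574947 to 10575968) fell in chilled fruit, at 33.4, 28.4 and 24.6 in recovered, 20.4, 17.6 and 20.2 in chilled, and 44.7, 52.7 and 47.1 in unchilled libraries, with -1.31 ± 0.13 between chilled and unchilled fruit (adjusted p = 1.45e-05). Major latex protein 149-like MELO3C020270.2 (chromosome 6, 15175929 to 15177033) was low in recovered fruit, at 2.91, 2.42 and 6.14, against 65.6, 19.8 and 17.4 in chilled and 18.1, 25.1 and 12.4 in unchilled fruit. It differed by -3.14 ± 0.62 between recovered and chilled fruit (adjusted p = 0.00146, -2.27 without chilled library 1). Its difference of -2.26 ± 0.61 from unchilled fruit (adjusted p = 0.0201) was lost without recovered library 1 or 2 or unchilled library 2.

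MLP-like protein 329 genes less than 50 kb apart on chromosome 2 differed in the cold. MELO3C015021.2 (9924331 to 9925211) was at 0.226, 0.972 and 0.261 in recovered, 23.6, 15.6 and 16.2 in chilled, and 0.567, 2.9 and 1.93 in unchilled libraries, and rose by 3.34 ± 0.54 in chilled against unchilled fruit (adjusted p = 0.000353). MELO3C029386.2 (9954176 to 9955055) averaged 0.505 ± 0.378 in recovered, 1.57 ± 1.08 in chilled and 3.41 ± 1.73 in unchilled fruit (SD, n = 3 each), and its chilled and unchilled libraries overlapped. The difference between the 2 genes was not tested. A gene of the same description farther along chromosome 2, MELO3C015011.2 (10172097 to 10173024), was at 0.707, 2.6 and 1.29 in recovered, 13.9, 13.7 and 16.4 in chilled, and 6.78, 14 and 9.59 in unchilled libraries. It differed by -3.25 ± 0.43 between recovered and chilled fruit (adjusted p = 7.82e-05, -3.85 without recovered library 2).

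The single calls of the class fell to genes of low level, which were picked after their values were seen. An MLP-like protein gene, MELO3C012016.2 (chromosome 10, 3250572 to 3251852), was the 1 gene that rose in recovered against chilled fruit, by 2.16 ± 0.33 (adjusted p = 0.000227), and averaged 3.75 ± 0.749 in recovered, 0.838 ± 0.36 in chilled and 2.49 ± 0.45 in unchilled fruit (SD, n = 3 each). Major latex allergen Hev b 5-like MELO3C012678.2, named for a latex allergen of the rubber tree that is not of the PR-10 fold, was the other gene called higher in recovered than in unchilled fruit. It averaged 1.41 ± 0.11 in recovered, 1.49 ± 1.13 in chilled and 0.434 ± 0.134 in unchilled fruit, and this call (1.68 ± 0.55, adjusted p = 0.0388) was lost without any 1 of the recovered or unchilled libraries.

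Cystatins, the inhibitors of papain-like cysteine proteases, made up 34 members, of which 14 were tested. Of these 5 rose and 2 fell in chilled against unchilled fruit. In recovered against chilled fruit none of the 14 was called higher and 7 fell, where 25.1% of all tested genes were called higher and 25.3% lower. In recovered against unchilled fruit 1 rose and 6 fell, where 3.66% of all tested genes were called higher and 9.15% lower. With library totals the first split of the cystatins was 2 and 4 and the second 1 and 7. The direction of the class between chilled and unchilled fruit thus depends on the scaling.

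Cystatin MELO3C011798.2 (chromosome 10, 4744009 to 4746905) was at 236, 217 and 234 in recovered, 163, 196 and 181 in chilled, and 231, 199 and 196 in unchilled libraries, and its log2 differences were between -0.21 and 0.35. MELO3C015607.2 (chromosome 2, 3272185 to 3274573) stood at 145, 179 and 165 in recovered, 358, 292 and 327 in chilled, and 152, 160.4 and 166 in unchilled libraries. Its difference of 1.03 ± 0.10 between chilled and unchilled fruit (adjusted p = 1.18e-05) was just past the fold threshold, and the call was lost without chilled library 1 or unchilled library 1 (0.95) and with library totals. The 1 cystatin that rose in recovered against unchilled fruit, MELO3C019126.2 (chromosome 8, 14140686 to 14141864, picked after its values were seen), had little spread. It stood at 87.6, 102 and 88.4 in recovered, 58.6, 60.8 and 61.3 in chilled, and 39, 41.9 and 39.4 in unchilled libraries, and the difference was 1.21 ± 0.08 (adjusted p = 5.52e-05).

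Of the other named cystatins, 5 were low in recovered fruit, and 3 of these had their highest levels in chilled fruit. MELO3C021766.2 (chromosome 12, 16934103 to 16935168) was at 0.96, 0.251 and 1.18 in recovered libraries, 188, 109 and 110.4 in chilled libraries, and 11.9, 19.8 and 11.4 in unchilled libraries. It rose by 3.24 ± 0.37 in chilled against unchilled fruit (adjusted p = 5.44e-05), and recovered fruit were -7.38 ± 0.49 from chilled (adjusted p = 1.58e-06) and -4.14 ± 0.47 from unchilled fruit (adjusted p = 0.000437). The level of this gene in recovered fruit thus lay below that of fruit that had never been stored.

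Both others with this order are neighbours on chromosome 1. MELO3C012701.2 (23072648 to 23073448) was at 4.71, 7.68 and 21.4 in recovered, 225, 202 and 188 in chilled, and 75.8, 159 and 95.9 in unchilled libraries. MELO3C012702.2 (23100122 to 23101045) was at 0.117, 0.116 and 1.06 in recovered, 32.7, 28.8 and 29.9 in chilled, and 8.23, 20 and 11.6 in unchilled libraries. Recovered library 3 was the highest recovered library for both. Recovered fruit were below unchilled fruit by -3.28 ± 0.52 (adjusted p = 0.00206) and -4.85 ± 0.62 (adjusted p = 0.000765), or -4.15 and -6.74 without recovered library 3. Against chilled fruit the differences were -4.17 ± 0.54 (adjusted p = 0.000112) and -6.05 ± 0.63 (adjusted p = 2.57e-05), or -5.05 and -7.94 without that library. Between chilled and unchilled fruit only the second was called, at 1.20 ± 0.45 (adjusted p = 0.0386). This call was lost without any 1 chilled library, without unchilled library 1 (0.93) or 3, and with library totals.

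The remaining 2 of the 5 were highest in unchilled fruit. MELO3C018579.2 (chromosome 1, 1229037 to 1229721) was at 0.786, 2.42 and 3.41 in recovered, 2.02, 4.41 and 3.74 in chilled, and 29.8, 54.5 and 35 in unchilled libraries. It fell by 3.54 in chilled (SE 0.46, adjusted p = 0.0001) and by 4.15 in recovered fruit (SE 0.47, adjusted p = 0.000391), both against unchilled fruit. MELO3C002921.2 (chromosome 9, 7767607 to 7768046) was at 0.245, 0.487 and 0.106 in recovered, 4.07, 2.53 and 3.58 in chilled, and 7.52, 13.2 and 6.67 in unchilled libraries. It was called lower in each comparison, by -1.42 ± 0.39 in chilled against unchilled (adjusted p = 0.00747), -3.56 ± 0.54 in recovered against chilled (adjusted p = 0.000209, -4.18 without recovered library 2) and -4.98 ± 0.51 in recovered against unchilled fruit (adjusted p = 0.000223, -5.60 without recovered library 2). MELO3C024605.2 (chromosome 8, 8940214 to 8941047), picked after its values were seen, had the same order, at 2.31 ± 0.414 in recovered, 10.8 ± 2.54 in chilled and 18 ± 5.56 in unchilled fruit (SD, n = 3 each).

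MELO3C034352.2, a cystatin on chromosome 10 (11972485 to 11972805), was counted in chilled fruit only. It had 96 counts over the chilled libraries, at levels of 8.36, 7.18 and 6.96, and 0 in recovered and in unchilled fruit. Against the floor of 3 counts over a group it was at least 43.15-fold higher in chilled than in unchilled fruit, and at least 46.78-fold lower in recovered than in chilled fruit. At this depth a level below the floor cannot be told from absence.

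The remaining 31 protease inhibitors, mostly of serine proteases, had 16 tested genes. Against unchilled fruit 7 rose and 2 fell in chilled fruit (5 and 3 with library totals), and 5 rose and 4 fell in recovered fruit. Against chilled fruit 1 rose and 4 fell in recovered fruit, or 2 and 2 with library totals. Here some genes that were high in the cold were still high after recovery.

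Trypsin inhibitor 1 MELO3C018009.2 (chromosome 7, 28582897 to 28584432) had the highest mean level, at 300.1, 299 and 272 in recovered, 523, 585 and 530.3 in chilled, and 306, 864 and 666 in unchilled libraries. Unchilled library 1 lay near the recovered libraries, and the other 2 were well above them. The log2 difference of -1.08 ± 0.31 between recovered and unchilled fruit (adjusted p = 0.0251) was lost without any 1 recovered library and without unchilled library 2 (-0.74) or 3. A second trypsin inhibitor 1 of the same cluster of 7 genes (28544188 to 28584432), MELO3C017999.2, was at 69, 123 and 76 in recovered, 109, 46.6 and 70.9 in chilled, and 16.9, 4.5 and 9.62 in unchilled libraries. This gene model is only 213 bp long and held 1110, 640 and 117 counts over the 3 groups in that order. It rose by 3.12 ± 0.49 in recovered (adjusted p = 0.0018) and by 2.87 ± 0.49 in chilled fruit (adjusted p = 0.000615), both against unchilled fruit. Another gene there, MELO3C018005.2, had 2 counts over the recovered, 89 over the chilled and 54 over the unchilled libraries. It falls outside the rule on named genes. Its chilled libraries were unequal, at 0.288, 2.68 and 7.92, and its level in recovered fruit was lower by a ratio of 65.05 (95% counting interval 17.49 to 545.5) than in chilled fruit. The fitted log2 difference, whose size depends on the prior count, was -5.65, and -4.35 without chilled library 3. The group with the highest mean differed between the 3 tested genes of this cluster. For each gene, however, the libraries of that group overlapped those of the group next in mean level, and this difference was not called.

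The proteinase inhibitor MELO3C006464.2 (chromosome 6, 3418379 to 3419386) rose in both stored groups. It was at 264, 595 and 189 in recovered libraries, 912, 438 and 457 in chilled libraries, and 40.1, 6.11 and 22.7 in unchilled libraries. The log2 difference was 4.72 ± 0.74 for chilled (adjusted p = 0.000378, 5.37 without unchilled library 1) and 3.93 ± 0.71 for recovered against unchilled fruit (adjusted p = 0.00364, 3.31 without recovered library 2 and 4.58 without unchilled library 1). It lies among 8 protease inhibitor genes between 3358692 and 3421296, 3 of which were tested and all 3 of which were called higher in recovered than in unchilled fruit. Another of them, MELO3C006456.2 (3358692 to 3359814), was at 13.7, 7.73 and 11.8 in recovered, 24.7, 22.2 and 24.1 in chilled, and 1.97, 4.07 and 2.9 in unchilled libraries, with a difference of 1.88 ± 0.28 between recovered and unchilled fruit (adjusted p = 0.00121). This gene and MELO3C031670.2 fall outside the rule on named genes. For MELO3C031670.2 (3420497 to 3421296), at 6.79 ± 3.35 in recovered, 5.08 ± 3.67 in chilled and 1.73 ± 1.01 in unchilled fruit (SD, n = 3 each), the call (1.98 ± 0.63, adjusted p = 0.0367) was lost without recovered library 2 or 3, chilled library 2, or unchilled library 2 or 3.

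**Figure D4:**
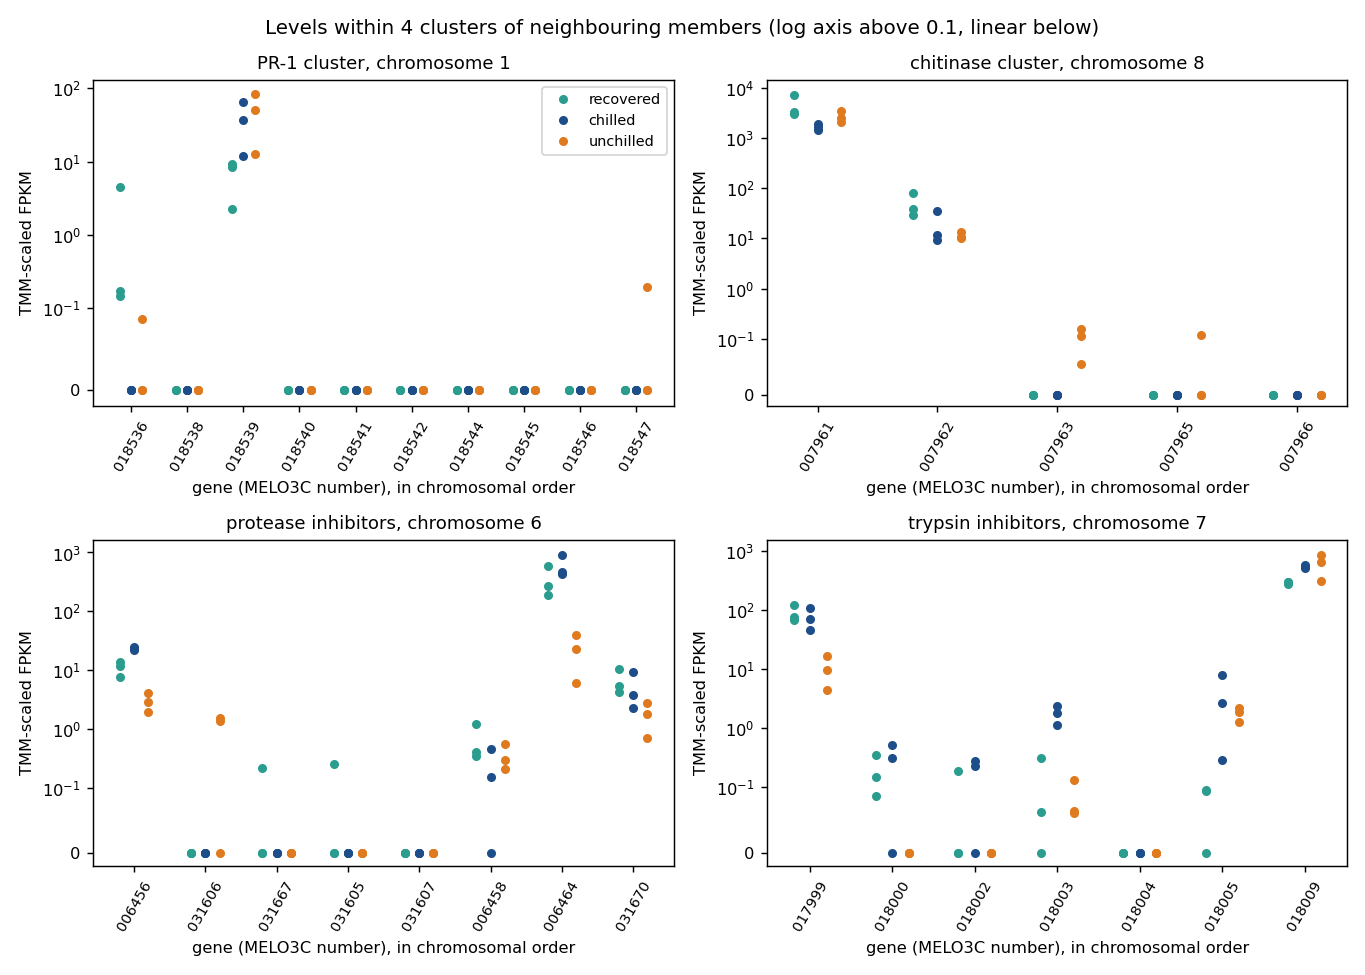
Levels of all members in 4 clusters of neighbouring genes (TMM-scaled FPKM, log axis above 0.1 and linear below), in chromosomal order, with recovered, chilled and unchilled libraries as green, blue and orange points from left to right. Most genes lay at or near 0 in every library, and in the cluster of 8 protease inhibitors on chromosome 6 the 3 tested genes had their lowest mean in unchilled fruit.

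Kunitz-type inhibitors, which block trypsin, form a pair on chromosome 12. MELO3C002175.2 (25823384 to 25824252) was at 14.6, 61.8 and 19.1 in recovered, 39.9, 39.3 and 30.5 in chilled, and 7.81, 7.66 and 9.24 in unchilled libraries, and rose by 2.15 ± 0.51 in chilled against unchilled fruit (adjusted p = 0.00427). In recovered fruit its difference from unchilled fruit was 1.95 ± 0.50 (adjusted p = 0.0171), 1.03 without recovered library 2, and the call was lost without unchilled library 1 or 2. The neighbouring MELO3C002177.2 averaged 4.73 ± 1.88 in recovered, 3.65 ± 2.41 in chilled and 3.23 ± 1.16 in unchilled fruit (SD, n = 3 each), and none of its comparisons was called.

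The serine proteinase inhibitor MELO3C018349.2 (chromosome 10, 19008519 to 19009645) had the order chilled, unchilled, recovered, as did cystatin MELO3C021766.2. It was at 3.53, 4.14 and 2.66 in recovered libraries, 149.6, 119 and 133 in chilled libraries, and 8.2, 14.8 and 12.2 in unchilled libraries, with no overlap between any of the groups. The log2 differences were 3.51 ± 0.22 for chilled against unchilled (adjusted p = 7.12e-07), -5.28 ± 0.25 for recovered against chilled (adjusted p = 1.20e-07) and -1.78 ± 0.24 for recovered against unchilled fruit (adjusted p = 0.000728).

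Some inhibitors were low in the cold. The Bowman-Birk type inhibitor MELO3C011565.2 (chromosome 3, 15581397 to 15582011) was at 15.1, 10 and 7.91 in recovered, 2.91, 4.13 and 4.06 in chilled, and 11.1, 9.61 and 8.1 in unchilled libraries. It fell by 1.37 in chilled against unchilled fruit (SE 0.29, adjusted p = 0.0017) and rose by 1.56 ± 0.29 in recovered against chilled fruit (adjusted p = 0.000704). MELO3C008252.2 (chromosome 3, 2371892 to 2372792), whose family also holds seed storage and lipid transfer proteins, so that inhibition of proteases is not given by its name, was at 2.82, 1.2 and 1.34 in recovered, 0, 0.992 and 0.984 in chilled, and 14.8, 4.05 and 7.88 in unchilled libraries. Its log2 difference of -3.70 ± 0.78 between chilled and unchilled fruit (adjusted p = 0.00207) rests on 22 counts over the chilled libraries against 379 in unchilled fruit. Recovered fruit were -2.31 ± 0.68 from unchilled fruit (adjusted p = 0.0271), a call that was lost without recovered library 2 or 3, or unchilled library 1 (-1.76) or 3.

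**Figure D5:**
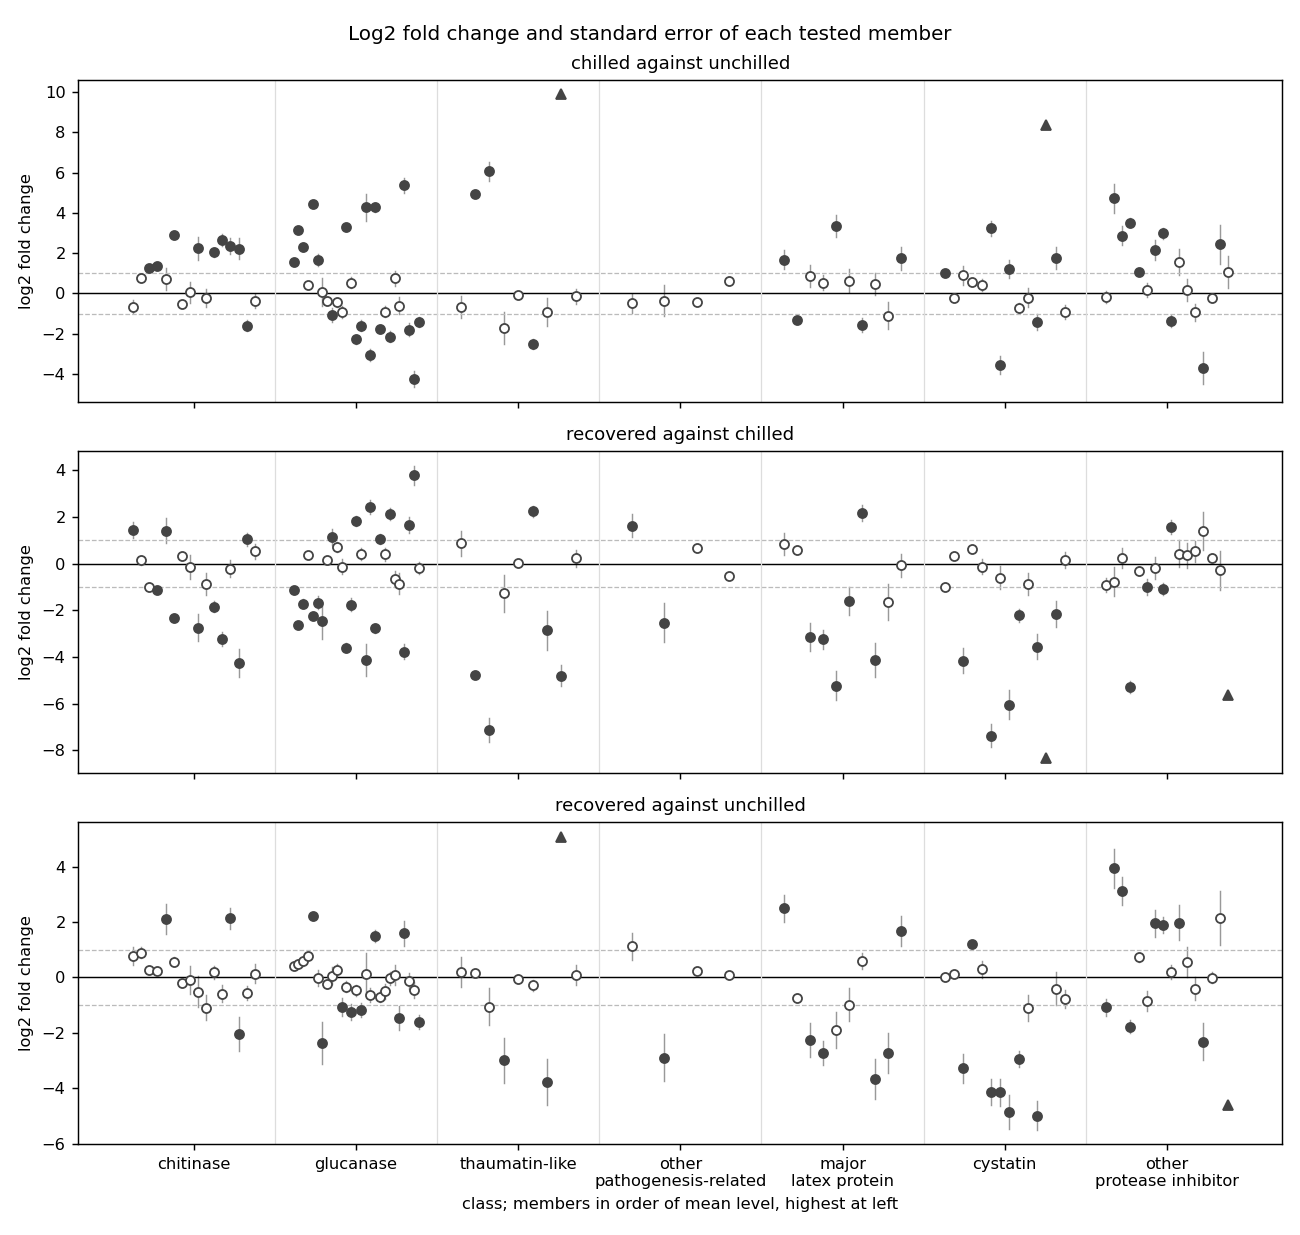
Log2 fold change (vertical axis) of the tested members by class in 3 comparisons, from edgeR's fit over 15022 genes, with bars of 1 SE. Filled points were called and open points were not, triangles mark genes with 3 counts or fewer over 1 of the groups, whose fitted values are no measure of size, and dashed lines mark the fold threshold of 1. In recovered against chilled fruit no cystatin lay above the upper line on the TMM scale, and 7 of 14 were called below the lower one. This share of called cystatins was near the 50.4% of all tested genes called there. A gene with no count in both groups is not drawn.

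A member may hold the searched words without being a defence protein. The pathogenesis-related homeodomain protein MELO3C019554.2 (chromosome 6, 13032553 to 13049989) is by its name a DNA-binding protein, known in parsley from binding to a PR gene promoter. It was at 8.88, 9.64 and 9.16 in recovered, 5.76, 5.95 and 5.84 in chilled, and 8.27, 7.59 and 7.56 in unchilled libraries. The groups did not overlap, but differences were 0.66 ± 0.08 at most (recovered against chilled, adjusted p = 4.42e-05) and none passed the fold threshold.

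Members of 1 class often lay side by side. With gaps below 50 kb, 101 of 216 members fell into 34 clusters, of which 11 held 2 or more tested members, 13 held 1 and 10 held none. Where close copies share sequence, reads may have been assigned to either, which was not tested.

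Replicates of the members were unequal in spread. Among members with a mean level of 5 or more in the group, the median coefficient of variation was 18.6% in recovered, 13.3% in chilled and 28.4% in unchilled fruit. Recovered library 2 was the highest of its group for 46 of 95 members, chilled library 1 for 46 of 96 and unchilled library 2 for 38 of 94. Counts of members called in recovered against unchilled fruit were the least stable to leaving out a library, since 17 of the 38 calls were lost in at least 1 of 9 such fits, as against 7 of 52 in chilled against unchilled and 11 of 52 in recovered against chilled fruit.

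Further lists place the members beside other defence genes. Of 33 antimicrobial and wall defence genes (defensins, snakins, heveins, germins and inhibitors of fungal polygalacturonases) 9 were tested. In chilled against unchilled fruit 3 rose and 4 fell, in recovered against chilled fruit 5 rose and 1 fell, and in recovered against unchilled fruit 1 rose and 1 fell. Of all tested genes 48.3, 50.4 and 12.8% were called in these comparisons, in that order. The calls of this list and of those below were made on the TMM scale only, and their balance of directions may depend on it. A defensin, MELO3C005214.2, a small membrane-active peptide, averaged 82.9 ± 22.1 in recovered, 564 ± 87.3 in chilled and 237 ± 93.9 in unchilled fruit (SD, n = 3 each) and rose by 1.25 ± 0.30 in chilled against unchilled fruit (adjusted p = 0.00492). It was called lower in recovered than in unchilled fruit (-1.52 ± 0.31, adjusted p = 0.00604). The other tested defensin, MELO3C005215.2, was low and went the other way in the cold. Its means were 1.18 in recovered, 0.133 in chilled and 1.58 in unchilled fruit, with -3.38 ± 0.86 between chilled and unchilled fruit (adjusted p = 0.00534). Polygalacturonase inhibitor 3, MELO3C005083.2, averaged 21.7 ± 1.83 in recovered, 2.62 ± 0.143 in chilled and 16.5 ± 1.42 in unchilled fruit, with -2.65 ± 0.11 between chilled and unchilled fruit.

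Of 40 genes of salicylic acid signalling and resistance, 20 were tested. In chilled against unchilled fruit 4 rose and 8 fell, in recovered against chilled fruit 4 rose and 6 fell, and in recovered against unchilled fruit none was called higher and 6 fell. The shares of all tested genes called were 48.3, 50.4 and 12.8% in the same order. Salicylic acid-binding protein 2, MELO3C007533.2, an esterase that frees salicylic acid from its methyl ester, averaged 12.7 ± 2.35 in recovered, 76.1 ± 7.15 in chilled and 11.6 ± 1.43 in unchilled fruit. An MLO-like gene, MELO3C025761.2, of the family in which loss of a member makes barley resistant to powdery mildew, averaged 43.6 ± 14.0 in recovered, 2.05 ± 0.391 in chilled and 56.2 ± 3.94 in unchilled fruit (SD, n = 3 each). Chilled fruit differed from unchilled fruit by 2.71 ± 0.16 for the first and -4.79 ± 0.27 for the second. Other genes of salicylic acid-binding protein 2 description went the other way. MELO3C021922.2 averaged 1.53 in recovered, 0.361 in chilled and 1.21 in unchilled fruit and was called lower in chilled than in unchilled fruit (-1.68 ± 0.56, adjusted p = 0.0199), and MELO3C002777.2 was not called there (-1.10 ± 0.46, adjusted p = 0.0516). Further MLO-like genes went both ways in chilled against unchilled fruit. MELO3C023219.2 (2.63) and MELO3C034561.2 (2.26) were called higher there. MELO3C007979.2 (-1.26), MELO3C013709.2 (-1.67) and MELO3C021515.2 (-2.65) were called lower, and the rest were not called.

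Markers of other parts of the fruit moved with the groups too. Of 22 phloem genes 8 were tested. Of these, 3 rose and 4 fell in chilled against unchilled fruit, where 48.3% of all tested genes were called. The median log2 fold change of the phloem genes was -0.249. Their summed level was 50.9 to 58.9 in recovered, 147 to 207 in chilled and 92.7 to 126.8 in unchilled fruit, so the sum and the median differ in direction. The sum over 45 seed genes, 26 of which had no count in any library, was 41.1 to 49.4 in recovered, 141 to 175 in chilled and 84.7 to 96.9 in unchilled fruit, with 6 genes tested. Of these, 3 rose and 1 fell in chilled against unchilled fruit. The means of seed gene MELO3C012886.2 were 87.4 in chilled and 26.9 in unchilled fruit, and those of MELO3C005464.2 were 18.6 and 38.1. On this scale the phloem and seed sums had the order chilled, unchilled, recovered, as did the cystatin sum, which was 542.6 to 597.1 in recovered, 980 to 1180.2 in chilled and 637.7 to 760.6 in unchilled fruit. The phloem and seed sums were not taken under library totals. Under library totals the cystatin sum was 606.3 to 677.2 in recovered, 790.4 to 901.7 in chilled and 715.9 to 853.7 in unchilled fruit. Chilled and unchilled libraries then overlapped. The 30 genes of the fruit surface, 19 of them tested, summed to 529 to 1217 in recovered, 426 to 864 in chilled and 1164 to 3821 in unchilled fruit. Among the tested ones none was called higher and 8 fell in chilled against unchilled fruit. In recovered fruit none was called higher and 9 fell against unchilled fruit, and 4 rose and 5 fell against chilled fruit. The part of tissue makeup in the values of the members was not tested.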

How the data were processed

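RNA-seq of 9 libraries of ripe melon fruit was used. Per the labels, reads were trimmed with Cutadapt 1.15 and aligned with HISAT2 2.0.5. The authors deposited 1 table with raw counts of reads for each gene and, beside them, FPKM. The deposited FPKM equal the count per gene length and library total within 4.5e-11. The strand setting of the counting and the build of the coordinates are not given in the table, and coordinates are printed as the table gives them. Each replicate held 3 fruits, per the study's methods.

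Counts were tested in R 4.3.3 with edgeR 4.0.16 (robust quasi-likelihood fit, TMM factors, no block, all 9 libraries). The filter was a mean FPKM above 1. Calls needed a Benjamini-Hochberg adjusted p below 0.05 and an absolute log2 fold change above 1. SEs are the absolute log2 fold change over the square root of F, and are not made from the SDs. Depth was 15508367 to 19011486 counts. Folds against a group with no count are bounds against 3 counts over the group, and bounds and 95% intervals cover counting error only.

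Named are the 3 most abundant tested members per class, the 5 highest and 5 lowest fold changes per comparison (called, level of at least 5 in the higher group, no overlap), and the extremes of each cluster. Exceptions are marked. Members and lists were chosen with earlier results of these data known. Alternatives were library totals, DESeq2 1.42.0, limma 3.58.1 on log2 FPKM, other filters and thresholds, a replicate block, fits of 2 groups and leaving out each library.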

Additional observations from a re-analysis of the deposited data

How the results depend on the processing

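Directions of called members did not reverse under any alternative run. Over the alternatives other than that without a fold threshold, single members kept the call or its absence in 5148 comparisons, lost it in 226 and gained it in 98. Members called lower in chilled against unchilled fruit, 17 in the report, numbered 26 with library totals and 26 with limma on log2(FPKM + 0.1). The FPKM used in limma are themselves scaled to library totals, so both alternatives share a scaling and are not independent. With no filter the members called lower numbered 28, over a wider set that includes members left untested in the report. Among the members tested in the report, the fit with no filter called 52 in this comparison, with 4 calls lost and 4 gained. Without a fold threshold, all genes called numbered 11326 in chilled against unchilled, 11578 in recovered against chilled and 5494 in recovered against unchilled fruit, where 22 members were then higher. At an adjusted p below 0.01, members called in recovered against unchilled fruit numbered 21, with 8 higher and 13 lower. Leaving out each library in turn gave 48 to 53 members in chilled against unchilled (32 to 35 higher, 16 to 21 lower), 48 to 52 in recovered against chilled (12 to 14 higher, 36 to 39 lower) and 24 to 40 in recovered against unchilled fruit (10 to 16 higher, 13 to 24 lower), with 7136 to 7262, 7389 to 7585 and 1638 to 1980 genes in all. The cause of these changes was not tested. Replicate numbers did not pair the samples: deviations of same-numbered libraries correlated at -0.184 to 0.206, and those of others at -0.217 to 0.147. With a replicate block 53 members were called in chilled against unchilled, 54 in recovered against chilled and 35 in recovered against unchilled fruit, and 7227, 7549 and 1855 genes in all. Depth limits genes near the filter, and 3 libraries per group limit every test. P-values set a group difference against the spread between these pools of fruit, which the fit partly shares across genes and groups. They do not cover variation between harvests.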
